A study of Mus musculus with 6 samples.

Results

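Expression of 10 genes that govern the step from quiescence through G1 was examined in haematopoietic stem cells (HSCs) of control and MaeaCsf1r-Cre mice. The set holds the CDK inhibitors *Cdkn1a*, *Cdkn1b*, *Cdkn1c* and *Cdkn2c*, the kinases *Cdk4* and *Cdk6*, the D-type cyclins *Ccnd1*, *Ccnd2* and *Ccnd3*, and *Rb1*. Members were taken by gene symbol from the deposited expression table. Each matched 1 of its 46959 rows, and all 10 were among the 12955 genes with at least 1 CPM, the read count scaled to the depth of the library, in at least 3 of the 6 libraries, which were the genes tested.

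Haematopoietic stem cells were compared between 3 control libraries and 3 MaeaCsf1r-Cre libraries, to ask what loss of *Maea*, which encodes a subunit of a ubiquitin ligase, does to their transcriptome. Mice of both groups were littermates, labelled as 8 weeks old, an age within the wider range that the study states. Each library was made from about 2000 bone marrow cells pooled from a pair of animals. Control libraries are labelled only as control, with no allele given. In MaeaCsf1r-Cre mice a floxed *Maea* is removed by a Cre under the *Csf1r* promoter, a driver mostly chosen to delete genes in macrophages and related cells, so cells other than HSCs may also lose the gene. HSCs were defined in the study as CD150+ CD48- cells of the lineage- Sca-1+ c-kit+ compartment. No source says that replicates of a group came from separate sorting days, and p-values measure the spread between these libraries.

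The G1 restriction point is set by a small circuit. D-type cyclins bind and activate CDK4 or CDK6, and the kinase phosphorylates the retinoblastoma protein, which then releases E2F factors that switch on genes of S phase. Inhibitors of the Ink4 family, such as p18 from *Cdkn2c*, bind CDK4 and CDK6, whereas the Cip/Kip inhibitors p21, p27 and p57, from *Cdkn1a*, *Cdkn1b* and *Cdkn1c*, bind cyclin-CDK complexes more broadly. p57 is known for holding adult HSCs in quiescence, and CDK6 for setting how fast a quiescent HSC can enter the cycle.

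Promoter sequence from RefSeq (GRCm38.p6) was at hand for 6 of the 10 genes, in 9 windows that run from 250 bases before to 50 bases after a start site. *Cdkn1c*, *Ccnd1*, *Ccnd2* and *Rb1* had no window here. Both strands were searched for 7 motifs. The E-box CACGTG, which Myc and related factors can bind, was found in 7.15% of all 32851 windows. The window of *Cdk4* held 4 copies, a number reached in 8 windows (0.0244%). That of *Cdk6* held 1, as did 1 window of *Cdkn2c*, at chr4:109665323-109665622. The windows of *Cdk4* and *Cdk6* are shown up to the first exon that lies in each, since these stretches carry all 5 of their copies. They lie on the + strand at chr10:127063285-127063533 for *Cdk4* and chr5:3343643-3343731 for *Cdk6*, with the E-box in capitals. The *Cdk6* stretch lies inside the annotated gene, after its first exon.
Cdk4: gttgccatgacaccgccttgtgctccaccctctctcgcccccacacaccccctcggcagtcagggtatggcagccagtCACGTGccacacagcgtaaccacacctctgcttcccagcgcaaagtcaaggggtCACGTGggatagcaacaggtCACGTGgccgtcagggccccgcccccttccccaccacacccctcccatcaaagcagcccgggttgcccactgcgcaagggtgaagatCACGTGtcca
Cdk6: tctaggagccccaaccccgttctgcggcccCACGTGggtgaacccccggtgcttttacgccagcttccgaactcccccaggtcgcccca

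The window of *Cdkn1b* held 3 copies of CCAAT, as 3.37% of windows held 3 or more. It is shown on the + strand up to the first exon, at chr6:134920151-134920400, with its 2 copies there in capitals.
Cdkn1b: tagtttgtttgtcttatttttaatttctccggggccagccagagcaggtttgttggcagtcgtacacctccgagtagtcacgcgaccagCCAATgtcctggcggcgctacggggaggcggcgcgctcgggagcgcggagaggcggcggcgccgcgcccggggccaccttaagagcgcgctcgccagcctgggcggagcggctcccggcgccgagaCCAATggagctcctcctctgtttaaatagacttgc

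The E2F site (TTTGGCGC or TTTCGCGC, 0.813% of windows), the cell cycle homology region (TTTGAA, 17.9%) and the GATA site (AGATAA, 11.2%) matched none of the 9 windows. GGGCGG, the GC box found in 35.7% of windows, was present 4 times in 1 of the 2 *Cdkn2c* windows and 3 times in that of *Cdk4*. TATAAA (13.6%) was present once, in the window of *Cdk6*. A match describes letters and is not a binding site.

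The reads behind the scaling, read from the steps between low CPM values, numbered 32967000 to 39613000 in control and 44157000 to 60935000 in MaeaCsf1r-Cre libraries, with no overlap, and 3 reads were worth 0.0492 to 0.0910 CPM. Every member had at least 113 reads in every library. Values of single libraries are given in the order of replicates 1, 2 and 3. *Maea*, the targeted gene, had 108, 116 and 123 CPM in the control libraries and 76.9, 88.6 and 101 CPM in the MaeaCsf1r-Cre libraries. It was lower in each MaeaCsf1r-Cre library than in any control library, with a difference of -0.39 on the log2 scale (standard error, SE, 0.13, limma adjusted p = 0.967). Floxed and other exons are counted together in these values. All 14 HSC markers were detected in all libraries. Their summed level was 1377 to 2103 CPM in control and 976 to 1845 CPM in MaeaCsf1r-Cre libraries. On the log2 scale, *Ly6a*, the Sca-1 gene, differed by 0.23 and *Slamf1*, the CD150 gene, by 0.18. The other HSC markers were below 0, among them *Kit* (-0.38), *Procr* (-0.55), *Mecom* (-0.55) and *Fgd5* (-0.91). The 7 listed erythroid markers stood apart in replicate 1 of both groups. They summed to 3838 CPM in control and 4129 CPM in MaeaCsf1r-Cre replicate 1, against 804 to 1824 CPM in the other 4 libraries, mostly through *Car1* and *Klf1*.

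None of the 10 genes passed the test between MaeaCsf1r-Cre and control HSCs. In limma's moderated test on log2(CPM + 1), with Benjamini-Hochberg adjustment over all genes tested, 0 of 10 members had an adjusted p under 0.05, where 0.00772% of all genes did (1 gene). At an unadjusted p under 0.05 there were also 0 members, beside 3.99% of all genes. The adjusted p of the members lay between 0.967 and 0.995. Fold changes are on the log2(CPM + 1) scale throughout, which understates changes of genes with few reads. In these bulk libraries, fewer cells that express a gene and less of its RNA per cell cannot be told apart.

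Same-numbered libraries of the 2 groups deviated together across genes, so a second fit took the replicate number as a block. The block left 0 members called after adjustment (1 gene, 0.00772% of all), with adjusted p between 0.141 and 0.978. At an unadjusted p under 0.05 it moved the count from 0 to 3 members, *Cdkn1c* and *Ccnd1* lower and *Cdk6* higher in MaeaCsf1r-Cre HSCs. Without the block, leaving out control replicate 1 alone put 4 members under that limit, the same 3 and *Ccnd2* (beside 7.33% of all genes), and leaving out MaeaCsf1r-Cre replicate 3 alone put 2, *Cdkn1c* and *Cdk6* (beside 7.2%). Of all genes, 13.9% were under that limit with the block, 10.8% lower and 3.11% higher. Across genes, the log2 fold change without correction was lower for longer transcripts (Spearman's rho -0.29). With the block and each library also corrected for transcript length, 11 genes (0.0882%) passed the adjusted threshold and none was a member. At an unadjusted p under 0.05 there were then 3 members, beside 13.7% of all genes.

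**Figure D1:**
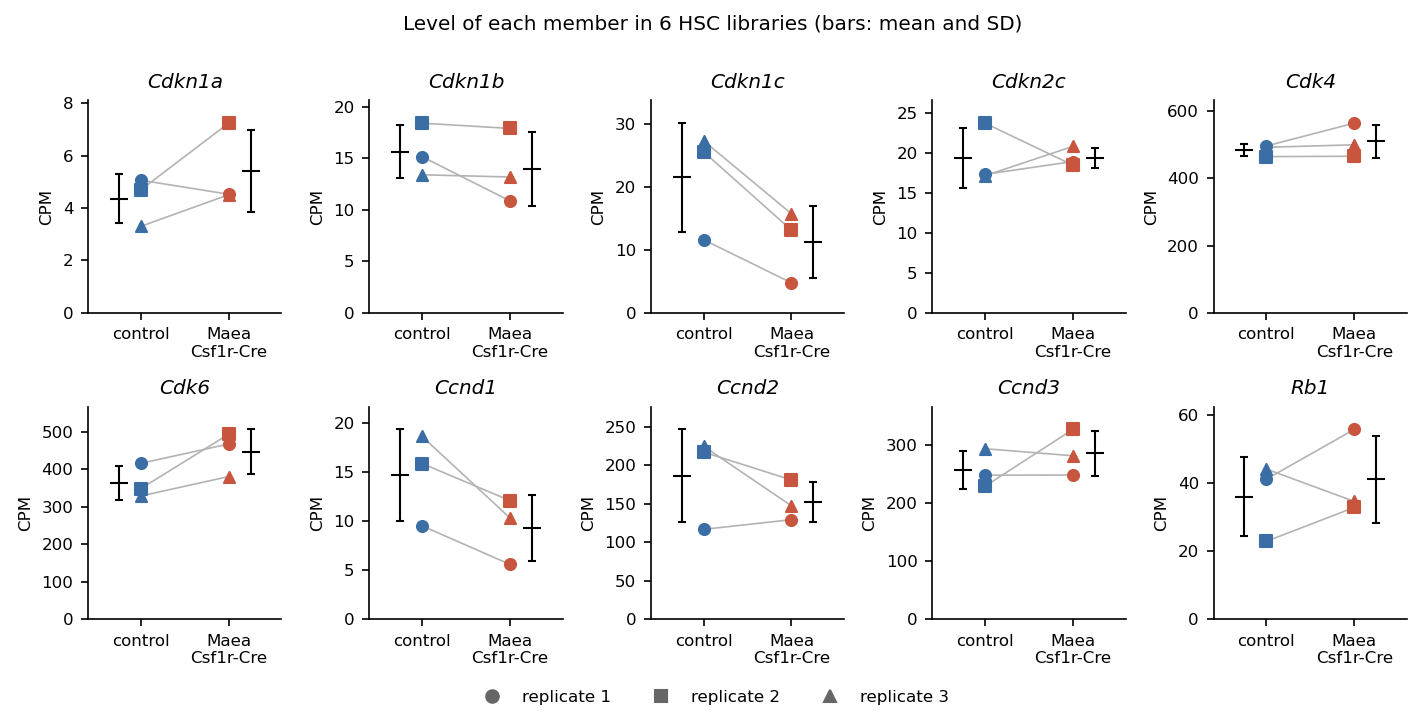
CPM of each of the 10 genes in each library, 1 panel a gene with its own linear axis from 0. Points are the 3 control and 3 MaeaCsf1r-Cre libraries, marked by replicate number, bars are the mean and SD, and grey lines join same-numbered libraries. The groups overlap in every panel, and *Cdkn1c* has the widest relative range, from 4.76 to 27.4 CPM.

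Among the Cip/Kip inhibitors, *Cdkn1c* showed the widest difference of any member. Its level was 11.6, 25.6 and 27.4 CPM in the control libraries and 4.76, 13.1 and 15.7 CPM in the MaeaCsf1r-Cre libraries. The lowest library of each group was its replicate 1, and control replicate 1 lay below MaeaCsf1r-Cre replicates 2 and 3, so the groups overlapped although each MaeaCsf1r-Cre library was below its same-numbered control. The mean was 21.5 ± 8.63 CPM in control and 11.2 ± 5.74 CPM in MaeaCsf1r-Cre HSCs (SD, n = 3 each), a ratio of 0.521. On the log2 scale the difference was -0.94 (SE 0.46, 95% interval -1.99 to 0.12, limma adjusted p = 0.967). With the replicate block its SE was 0.15, its interval -1.28 to -0.59 and its adjusted p = 0.141. *Cdkn1c* lies on the - strand of GRCm38 at chr7:143458339-143461050 (GENCODE M21, as for all members), and an antisense gene, Gm44732, covers 30.7% of its exon bases. Nothing in the library kit marks the strand, so reads of the pair cannot be told apart.

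*Cdkn1a*, the p21 gene and a target of p53, lies on the + strand at chr17:29090976-29100727, and its mean was higher in MaeaCsf1r-Cre HSCs. It had 5.07, 4.70 and 3.30 CPM in the control libraries and 4.53, 7.25 and 4.51 CPM in the MaeaCsf1r-Cre libraries. MaeaCsf1r-Cre replicate 2 was above all controls, and replicates 1 and 3 lay within the control range. This was a difference of 0.25 on the log2 scale (SE 0.25, 95% interval -0.33 to 0.83, limma adjusted p = 0.967).

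*Cdkn1b*, the p27 gene on the + strand at chr6:134920401-134925513, had 15.2, 18.4 and 13.4 CPM in the control libraries and 10.9, 17.9 and 13.2 CPM in the MaeaCsf1r-Cre libraries. Replicate 2 was the highest in both groups, and nearly all of the difference between same-numbered libraries was in replicate 1, at -0.45 on the log2 scale against -0.04 and -0.02 in the other pairs. Over all libraries it was -0.17 (SE 0.22, limma adjusted p = 0.967).

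The make-up of the Cip/Kip family was compared next. Per kilobase of transcript, *Cdkn1c* made up 51.6, 68.0 and 76.0% of the summed Cip/Kip level in the control libraries and 35.7, 48.5 and 62.2% in the MaeaCsf1r-Cre libraries. Its share was lower in each MaeaCsf1r-Cre library than in the same-numbered control, while the ranges of the groups overlapped. The difference of the means was -16.4 percentage points, and -9.86 without MaeaCsf1r-Cre replicate 1. The shares of *Cdkn1a* (12.3 ± 5.81% in control, 21.9 ± 6.79% in MaeaCsf1r-Cre, SD, n = 3 each) and *Cdkn1b* (22.5 ± 6.67% and 29.3 ± 6.46%) were higher in 3 of 3 same-numbered pairs. Shares of a family have a fixed total, so a lower *Cdkn1c* share in a pair requires a higher combined share of *Cdkn1a* and *Cdkn1b*. In CPM, *Cdkn1b* was lower in 3 of 3 pairs, and *Cdkn1a* was higher in 2 and lower in 1. The summed level itself was 25.1 ± 6.51 CPM per kilobase in control and 17.2 ± 5.87 CPM per kilobase in MaeaCsf1r-Cre HSCs, with overlapping groups.

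*Cdkn2c*, which encodes the Ink4 inhibitor p18, had a mean of 19.4 CPM in both groups. On the - strand at chr4:109660876-109667189, it measured 17.3, 23.7 and 17.1 CPM in the control libraries and 18.9, 18.5 and 20.8 CPM in the MaeaCsf1r-Cre libraries. The log2 fold change was 0.01 with a 95% interval of -0.40 to 0.42 (limma adjusted p = 0.995). Changes within those bounds remain compatible with these values. Of the other Ink4 genes, *Cdkn2a* was listed at 0 in all 6 libraries, *Cdkn2b* did not exceed 0.121 CPM, and *Cdkn2d*, the p19 gene, averaged 34.4 ± 7.48 CPM in control and 36.0 ± 8.37 CPM in MaeaCsf1r-Cre HSCs (SD, n = 3 each, log2 fold change 0.05).

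**Figure D2:**
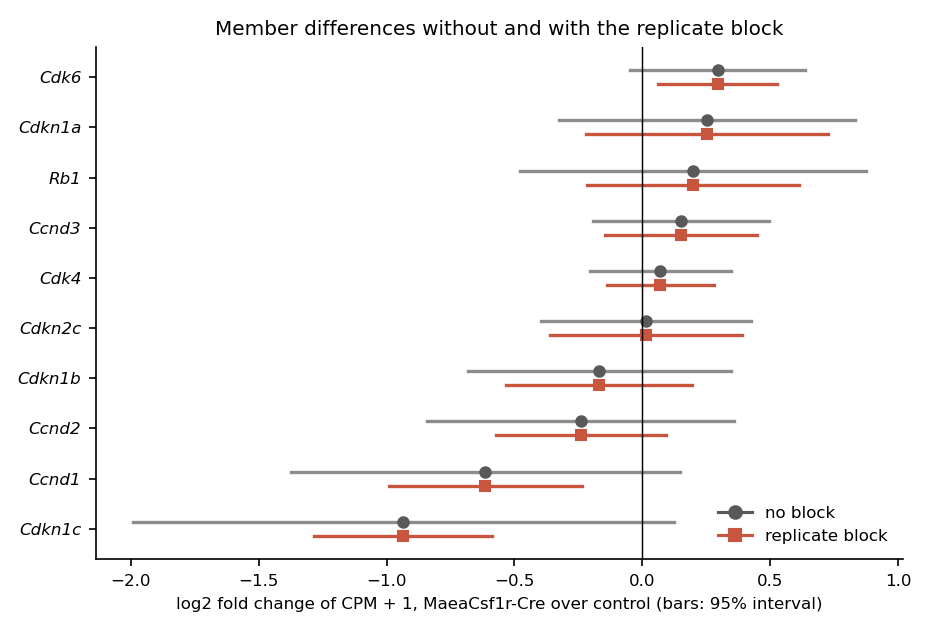
Log2 fold change of each member, MaeaCsf1r-Cre against control, with the 95% interval from limma without and with the replicate block. Without the block every interval includes 0, and with it those of *Cdkn1c*, *Ccnd1* and *Cdk6* do not.

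Both kinases had higher means in MaeaCsf1r-Cre than in control HSCs, and neither passed the test. *Cdk6* had 416, 348 and 329 CPM in the control libraries and 468, 494 and 381 CPM in the MaeaCsf1r-Cre libraries. Only MaeaCsf1r-Cre replicate 3 fell within the control range, and each MaeaCsf1r-Cre library was above its same-numbered control. The mean was 364 ± 45.7 CPM in control and 447 ± 59.2 CPM in MaeaCsf1r-Cre HSCs (SD, n = 3 each), 1.23 times as high. This came to a log2 fold change of 0.29 (SE 0.15, 95% interval -0.05 to 0.64, limma adjusted p = 0.967), and with the block the interval was 0.06 to 0.53 and the adjusted p = 0.281. The gene lies on the + strand at chr5:3341485-3531008.

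*Cdk4*, on the + strand at chr10:127063534-127067920, measured 497, 465 and 493 CPM in the control libraries and 565, 466 and 500 CPM in the MaeaCsf1r-Cre libraries. MaeaCsf1r-Cre replicate 1 was the highest library, and the other 5 lay close together. Its log2 fold change was 0.07 (SE 0.12, 95% interval -0.20 to 0.34, limma adjusted p = 0.973), the narrowest interval among the members. *Tspan31*, on the opposite strand, shares 19.7% of the exon bases of *Cdk4* and was itself at 52.5 to 60.9 CPM. *Cdk6* formed 22.9 ± 2.0% of the kinase pair per kilobase in control and 25.8 ± 3.33% in MaeaCsf1r-Cre HSCs, with overlapping groups.

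Of the D-type cyclins, *Ccnd1* differed most. Its values were 9.49, 15.8 and 18.6 CPM in the control libraries and 5.56, 12.1 and 10.3 CPM in the MaeaCsf1r-Cre libraries. Replicate 1 was again the lowest library of each group, and control replicate 1 lay below MaeaCsf1r-Cre replicates 2 and 3. The mean was 14.6 ± 4.67 CPM in control and 9.31 ± 3.36 CPM in MaeaCsf1r-Cre HSCs (SD, n = 3 each), a ratio of 0.635. The difference on the log2 scale was -0.61 (SE 0.33, 95% interval -1.37 to 0.15, limma adjusted p = 0.967), and with the block the interval was -0.99 to -0.24 and the adjusted p = 0.232. *Ccnd1* lies on the - strand at chr7:144929931-144939925, where LTO1 on the opposite strand shares 23.4% of its exon bases.

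*Ccnd2*, on the - strand at chr6:127125162-127152193, encodes the cyclin that cytokine signals induce in many blood cells. It had 117, 217 and 225 CPM in the control libraries and 129, 181 and 147 CPM in the MaeaCsf1r-Cre libraries. Control replicate 1 was the lowest of all 6 libraries and control replicates 2 and 3 were the highest. For this gene the log2 fold change was -0.24 (SE 0.26, 95% interval -0.84 to 0.36, limma adjusted p = 0.967). *Ccnd3*, on the + strand at chr17:47505051-47599691, had 248, 229 and 294 CPM in the control libraries and 249, 327 and 282 CPM in the MaeaCsf1r-Cre libraries, with a log2 fold change of 0.15 (SE 0.15, limma adjusted p = 0.967).

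Per kilobase, *Ccnd3* was the main D-type cyclin message of these cells, at 74.2 ± 6.55% of the 3 in control and 79.6 ± 0.635% in MaeaCsf1r-Cre HSCs (SD, n = 3 each). *Ccnd2* took 24.7 ± 6.31% and 19.7 ± 0.525%, and both ranges overlapped. The difference for *Ccnd3* was 5.39 percentage points, but 2.53 without control replicate 2 and 8.97 without control replicate 1. *Ccnd1* was a minor component, at 0.867, 1.32 and 1.28% in the control libraries and 0.50, 0.811 and 0.812% in the MaeaCsf1r-Cre libraries. Its share was the only one of the 8 computed whose groups did not overlap, and they remained apart with the longest transcript as the length and with no scaling for length. The summed level of the 3 cyclins was 334 ± 48.6 CPM per kilobase in control and 345 ± 50.4 CPM per kilobase in MaeaCsf1r-Cre HSCs, a difference smaller than the spread.

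**Figure D3:**
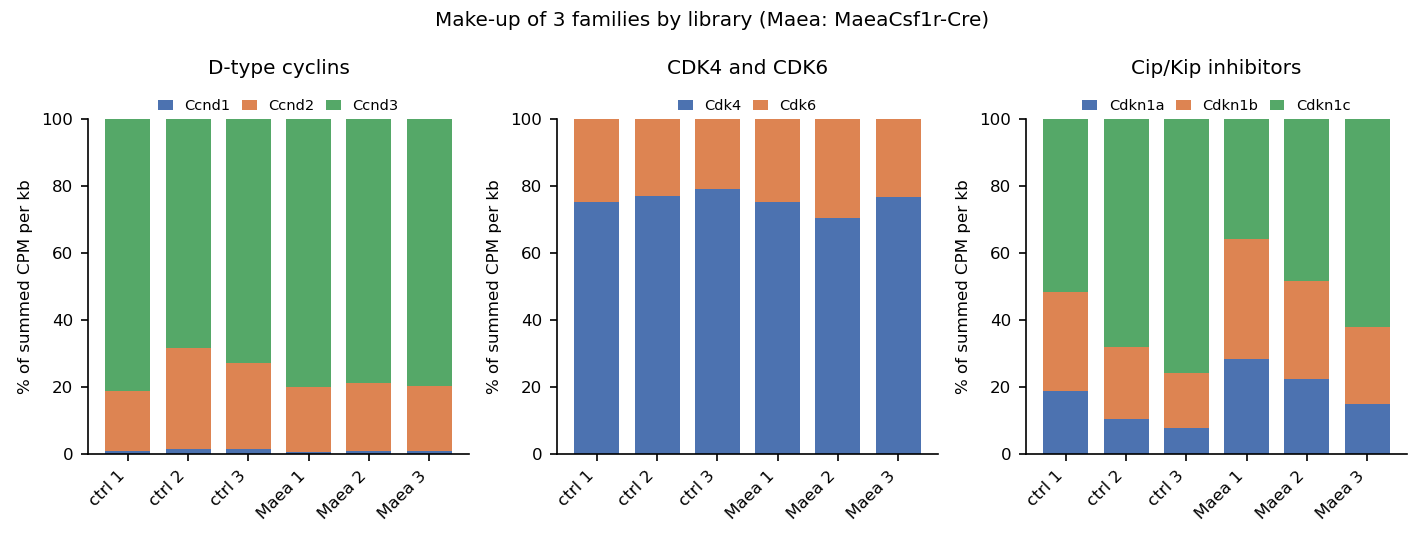
Share of each gene in the summed CPM per kilobase of its family, in percent, for the D-type cyclins, the CDK4/CDK6 pair and the Cip/Kip inhibitors, with 1 stacked bar from 0 to 100% per library. *Ccnd3* and *Cdk4* take most of their families in all 6 libraries, and the *Cdkn1c* share runs from 35.7 to 76.0%.

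*Rb1*, which encodes the retinoblastoma protein and lies on the - strand at chr14:73183673-73325822, had 41.1, 22.8 and 44.0 CPM in the control libraries and 55.7, 32.8 and 34.5 CPM in the MaeaCsf1r-Cre libraries. The libraries of each group were spread over a wide range and the pairs did not share a direction. The log2 fold change was 0.20 (SE 0.29, 95% interval -0.48 to 0.87, limma adjusted p = 0.967). On the opposite strand, *Lpar6* shares 6.78% and *Rcbtb2* 8.11% of its exon bases.

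Levels of different members can be set side by side per kilobase only. In control HSCs the order ran from *Cdk4* at 396 ± 14.1 CPM per kilobase through *Ccnd3* (247 ± 32), *Cdk6* (118 ± 14.7) and *Ccnd2* (83.2 ± 27) to *Cdkn1c* at 16.9 ± 6.77 (SD, n = 3 each). The 5 lowest were *Cdkn2c* (10.8 ± 2.10), *Rb1* (7.73 ± 2.47), *Cdkn1b* (5.40 ± 0.878), *Ccnd1* (3.92 ± 1.25) and *Cdkn1a* (2.86 ± 0.612). From *Cdk4* down to *Cdkn1c*, the control ranges of neighbours in this order did not overlap. *Cdkn1c* and *Cdkn2c* overlapped, as did each of *Cdkn1b*, *Ccnd1* and *Cdkn1a* with the gene just above it, whereas *Cdkn2c* and *Rb1* did not. With the longest transcript as the length, *Ccnd1* came before *Cdkn1b*, the ranges of *Cdk6* and *Ccnd2* and those of *Cdkn2c* and *Rb1* overlapped, and *Cdkn1a* no longer overlapped *Cdkn1b*, the gene just above it. In MaeaCsf1r-Cre HSCs *Cdkn1c* averaged 8.79 ± 4.50 and *Cdkn2c* 10.9 ± 0.695 CPM per kilobase, with overlapping ranges.

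As a set, the members did not lean one way. Of the 10, 6 had a log2 fold change above 0 and 4 below, where 39.1% of all genes were above and 60.9% below. Their median was 0.04, beside -0.06 over all genes tested. In 5 members the 3 same-numbered pairs shared a direction, beside 36.7% of all genes: 2 were higher in every pair (*Cdk4* and *Cdk6*, beside 13.2%) and 3 lower (*Cdkn1b*, *Cdkn1c* and *Ccnd1*, beside 23.5%). No member had groups that did not overlap, which 8.55% of all genes had.

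Over the 6 libraries, *Cdkn1c* and *Ccnd1* followed each other closely in log2(CPM + 1), with a Pearson's r of 0.973, and *Ccnd1* and *Ccnd2* had an r of 0.862. *Cdkn1c* ran against *Cdk6* (r = -0.807), and *Cdkn1b* against *Cdk4* (r = -0.932). With 6 libraries such values describe these samples, which also share differences in depth and in marker content. Among 9216 genes with a mean of at least 10 CPM, those most like *Cdkn1c* were *Arid1b* and *Gnaq*, both at an r of 0.999, and 284 genes exceeded 0.95. For *Ccnd1* they were *Tspan4* (0.992) and *Rnf2* (0.991), for *Ccnd2* *Ttc39b* (0.997) and *Pter* (0.990), and for *Ccnd3* *Treml1* (0.975) and *Sec22c* (0.969). *Cdk4* was most like Gm9761, a processed pseudogene (0.999), and *Alg1* (0.998), and *Cdk6* was most like *Tnpo2* (0.987) and *Plac8* (0.979). *Cdkn1a* was followed by *Flot1* (0.958) and *Abi3* (0.932), *Cdkn1b* by *Dennd1b* (0.976) and *Mrgpre* (0.962), *Cdkn2c* by *Lin52* (0.996) and *Pigt* (0.983), and *Rb1* by *Slc25a5* (0.997) and *Sec13* (0.994).

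The sums of HSC and of erythroid markers varied alongside the members that varied most. MaeaCsf1r-Cre replicate 1, the lowest library for *Cdkn1c* and *Ccnd1*, also had the lowest sum of the 14 HSC markers and the highest erythroid sum. Each MaeaCsf1r-Cre library was below its same-numbered control in the HSC sum, at 976 against 1377, 1405 against 2103 and 1845 against 1999 CPM, as it was for *Cdkn1c*. The erythroid sum was higher in each pair, at 4129 against 3838, 1615 against 1391 and 1824 against 804 CPM. The part of these marker levels, or of the unequal depth, in the difference of *Cdkn1c*, *Ccnd1* or *Cdk6* was not tested.

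**Figure D4:**
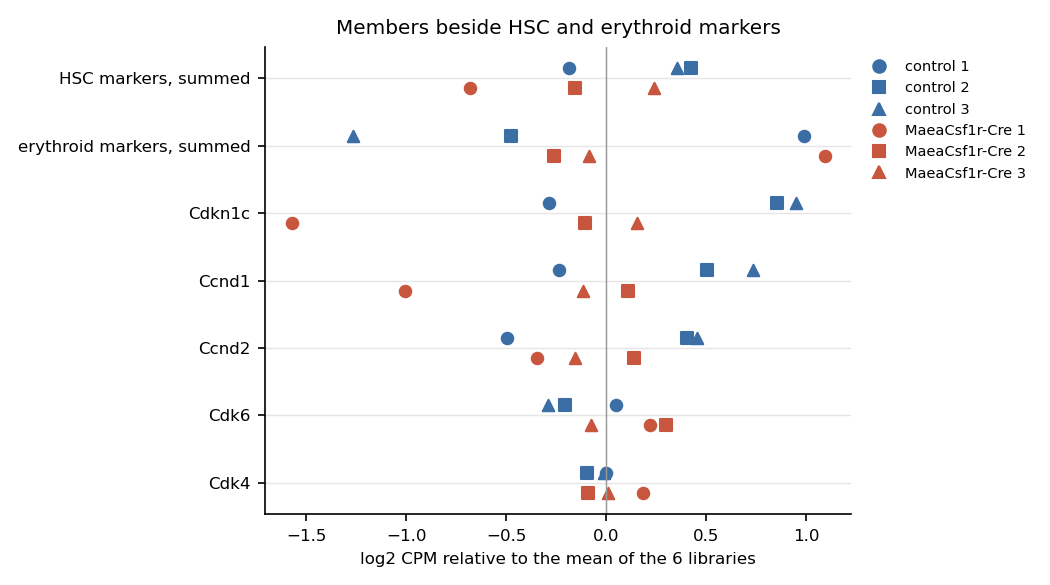
Log2 CPM in each library, relative to the mean of the 6 libraries, for the summed HSC and erythroid markers and for 5 members. Points are libraries, coloured by group and shaped by replicate number, and replicate 1 of each group is low for HSC markers, *Cdkn1c*, *Ccnd1* and *Ccnd2* and high for erythroid markers.

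Markers of the remaining lineages had lower sums than HSC markers in every library. The 12 macrophage markers summed to 39.1 to 82.0 CPM in control and 8.07 to 56.6 CPM in MaeaCsf1r-Cre libraries. Among them, *C1qb* was at 8.98, 3.79 and 5.37 CPM in the control libraries and 0.0328, 0 and 0.474 CPM in the MaeaCsf1r-Cre libraries. The groups of *C1qa*, *C1qb*, *C1qc*, *Cd163* and *Csf1r* did not overlap, as for 6.06% of all genes in this direction. Those of *Mrc1*, *Vcam1* and *Axl* did. The 8 B cell markers summed to 33.8 to 55.4 and 13.9 to 27 CPM, with *Pax5* and *Ms4a1* at 0. The 7 T cell markers summed to 11.5 to 16.5 and 7.20 to 10.7 CPM. Both lymphoid sums were lower in each MaeaCsf1r-Cre library than in any control, but 6 of the B cell and 5 of the T cell markers were under 1 CPM throughout. *Ighm* was at 16.9, 29.5 and 7.51 CPM in the control libraries and 0.279, 0.838 and 2.26 CPM in the MaeaCsf1r-Cre libraries. Its groups did not overlap, as for 6.06% of all genes in this direction, whereas those of *Cd79b*, *Lck* and *Cd4* did. Granulocyte and monocyte markers (11 genes) summed to 333 to 496 and 274 to 338 CPM, and megakaryocyte markers (6 genes) to 284 to 1318 and 341 to 708 CPM.

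Leaving out MaeaCsf1r-Cre replicate 1 alone gave -0.46 for *Cdkn1c* and -0.32 for *Ccnd1*, and leaving out control replicate 1 alone gave -1.31 and -0.88. Without replicate 1 of both groups, a comparison chosen after the data were seen, the log2 fold change of *Cdkn1c* was -0.84, that of *Ccnd1* -0.58, that of *Ccnd2* -0.43 and that of *Cdk6* 0.36. For *Cdkn1c*, *Ccnd1* and *Ccnd2* the unadjusted p from limma was under 0.05, as it was for 5.15% of all genes. No gene passed limma's adjusted threshold (0%), with or without the block, while 667 genes without it and 792 with it had an unadjusted p under 0.05.

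The circuit around the members was described with lists of its other genes. Upstream regulators, factors known to act on the members or on HSC quiescence, mostly had values below 0. Of 19 tested, 16 had a log2 fold change below 0 and 3 above, with a median of -0.30 beside -0.06 over all genes. None passed the adjusted threshold in limma, 1 had an unadjusted p under 0.05 (*Smad3*, beside 3.19% of all genes lower at that limit), and 9 did with the block, all lower (beside 10.8%). With length correction and the block, 13 of the 19 were below 0, and 7 had an unadjusted p under 0.05, all lower (beside 6.48%). *Smad3*, which carries TGF-beta signals, was at 32.9, 40.2 and 46.6 CPM in the control libraries and 19.6, 28.5 and 33.7 CPM in the MaeaCsf1r-Cre libraries (log2 fold change -0.55, SE 0.22). The groups overlapped only between control replicate 1 and MaeaCsf1r-Cre replicate 3. *Mycn*, a Myc family factor of HSCs, was at 133, 156 and 192 CPM in the control libraries and 74.1, 128 and 138 CPM in the MaeaCsf1r-Cre libraries (log2 fold change -0.53, SE 0.25). Others among the 9 were *Ndn*, the gene of a growth suppressor (-1.15), *Txnip* (-0.74), *Egr1* (-0.73), *Mecom* (-0.55), *Foxo3* (-0.42) and *Smad4* (-0.28). *Mecom* is also among the HSC markers. *Trp53*, whose product induces *Cdkn1a*, had a log2 fold change of 0.08.

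Of the pocket proteins, E2F factors and DREAM subunits, 10 of 18 had a log2 fold change above 0 and 8 below, with a median of 0.03. At an unadjusted p under 0.05 there was 1 of them without the block, beside 3.99% of all genes, and with it 2 higher and 1 lower, beside 3.11% and 10.8%. With length correction and the block, 14 were above 0 and 5 were higher at that limit, beside 7.22%. *Rbl2*, the pocket protein p130 that binds E2F4 in resting cells, was at 62.8, 79.4 and 62.4 CPM in the control libraries and 47.5, 46.8 and 61.7 CPM in the MaeaCsf1r-Cre libraries. The groups did not overlap, as for 6.06% of all genes in this direction, and the log2 fold change was -0.39 (SE 0.16, limma adjusted p = 0.967). *Mybl2*, which replaces the pocket proteins on the MuvB core in cycling cells, averaged 39.3 ± 8.31 CPM in control and 50.8 ± 8.29 CPM in MaeaCsf1r-Cre HSCs (SD, n = 3 each, log2 fold change 0.37), higher in 3 of 3 pairs.

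Downstream, nearly all E2F target genes of S phase had small differences of one sign. Of 22, 21 had a log2 fold change above 0 and 1 below, with a median of 0.11 and a largest value of 0.29. None passed the adjusted threshold, and 1 had an unadjusted p under 0.05, beside 0.803% of all genes higher at that limit, and 2 did with the block, beside 3.11%. In 4 the groups did not overlap, beside 2.49% of all genes, and 9 were higher in 3 of 3 pairs, beside 13.2%. *Tk1*, thymidine kinase, was at 68.3, 65.1 and 73.1 CPM in the control libraries and 86.8, 76.4 and 90.9 CPM in the MaeaCsf1r-Cre libraries, every MaeaCsf1r-Cre library above every control (log2 fold change 0.29, SE 0.12). *Tyms*, thymidylate synthase, had a log2 fold change of 0.25 (SE 0.16).

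All 16 genes of G2 and M had a log2 fold change above 0, with a median of 0.16 and values from 0.06 to 0.32, and 5 were higher in 3 of 3 pairs, beside 13.2% of all genes. None had an adjusted or unadjusted p under 0.05 without the block, and 2 had an unadjusted p under 0.05 with it, beside 3.11% of all genes higher at that limit. With length correction and the block, 12 of the 16 and 6 of the 22 S phase genes did, all higher (beside 7.22%), with a smallest adjusted p of 0.203 and 0.238 and medians of 0.27 and 0.24 beside 0.03 over all genes. *Mki67*, the proliferation marker, was at 120, 125 and 149 CPM in the control libraries and 175, 141 and 177 CPM in the MaeaCsf1r-Cre libraries, with MaeaCsf1r-Cre replicate 2 inside the control range (log2 fold change 0.32, SE 0.14). *Aurka*, a mitotic kinase, averaged 77.2 ± 9.92 CPM in control and 92.5 ± 14.9 CPM in MaeaCsf1r-Cre HSCs (SD, n = 3 each, log2 fold change 0.25). Genes of 1 list share their cells and are not independent of each other.

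In the group of cyclin E, cyclin A and CDK2, 5 of 7 tested genes were above 0 with a median of 0.14. *Cks1b* and *Cks2*, which encode adaptors of CDKs, had the smallest p of this group, with log2 fold changes of 0.19 and 0.22. The 3 genes of the CDK-activating kinase had a median of 0.07, with *Ccnh* at 0.11 and *Cdk7* at 0.07. Of the ubiquitin ligase genes that act on cyclins and inhibitors, 6 of 14 were above 0 and 8 below, with a median of -0.03. *Skp2*, whose product marks p27 for degradation, averaged 31.5 ± 1.23 CPM in control and 25.9 ± 5.10 CPM in MaeaCsf1r-Cre HSCs (SD, n = 3 each, log2 fold change -0.29, SE 0.17). *Cul4b* had a log2 fold change of -0.16.

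**Figure D5:**
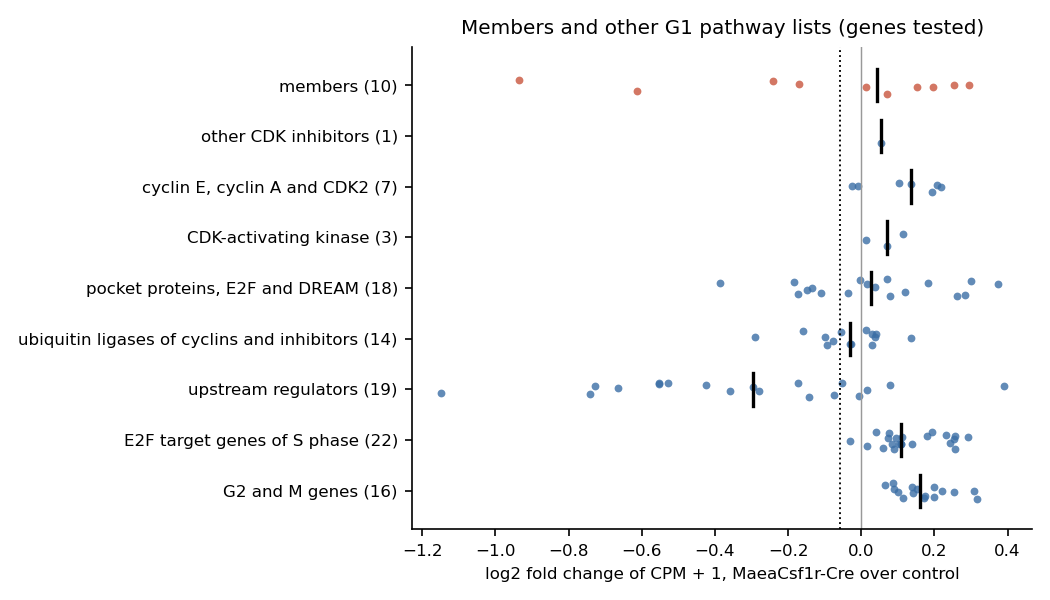
Log2 fold change of every tested gene of the 8 pathway lists and the members, 1 point a gene, with the median of each list as a bar and that of all genes, -0.06, as a dotted line. The upstream regulators have the lowest median, -0.30, and all 16 G2 and M genes lie above 0.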

How the data were processed

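RNA of sorted HSCs from 3 control and 3 MaeaCsf1r-Cre libraries was sequenced. Per the study's methods and the submitters' processing notes, the authors prepared cDNA with SMART-Seq v4 and Nextera XT, trimmed reads with Trim Galore, aligned them to mm10 with STAR 2.5.3a, quantified them on Ensembl release 83 and normalised in Partek Flow. What the authors deposited is a table of CPM, each raised by 0.0001, which was subtracted here. Listed genes held 75.2 to 80.2% of the scaling, and 27 symbols had been turned into dates. Of low values 72.0 to 73.6% were whole reads (tolerance 0.02), so counts were not recovered and no count test was used. The limit of 3 reads covers counting error only.

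The 12955 genes that reached 1 CPM in 3 or more libraries entered limma 3.58.1 (R 4.3.3) as log2(CPM + 1) (linear model, moderated test with mean-variance trend, two-sided, Benjamini-Hochberg over all of them, threshold 0.05). Replicate numbers come from the labels, which state no pairing. Deviations of same-numbered libraries correlated across genes (Pearson's r 0.627, 0.523 and 0.397, against -0.459 to -0.0538 for different numbers), so they were taken to pair the libraries. Each deviation was from the mean of its group, so the negative values for different numbers partly follow from the positive ones. The pairing was thus inferred from the same values that the block fit and the pair counts used. Coordinates, exons and transcript lengths came from GENCODE M21 (GRCm38), matched by symbol, and levels per kilobase used the mean length of coding transcripts. Python 3.11.15, pandas 2.3.3, numpy 2.4.6 and matplotlib 3.10.9 were used, and the procedure was tested on simulated data.

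Besides the members, the genes named were *Maea*, from each list the 2 tested genes with the smallest p and any with an unadjusted p under 0.05, and for each member the 2 genes with the most similar pattern. *Cdkn2a*, *Cdkn2b*, *Trp53* and the 6 further regulators were named after their values were seen, and the values of 1 listed gene are not reported here. The members and lists were chosen with earlier results of these data known. Alternatives were no filter, a minimum of 10 CPM, a pseudocount of 0.1, median-ratio and quantile normalisation, the block, no trend, a loess correction for length (span 0.5), each library left out and other lengths for the shares. Leaving out both replicate 1 libraries was added after seeing the data.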

Additional observations from a re-analysis of the deposited data

How the results depend on the processing

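No member was called under any of the 17 alternatives, and 161 of 169 recomputed member log2 fold changes kept their sign. The 8 that turned were of *Cdkn2c*, *Cdk4* and *Rb1*. *Cdkn2c* was -0.039 without both replicate 1 libraries, with or without the replicate block. With single libraries left out, *Cdkn2c* ranged from -0.063 to 0.16, *Cdk4* from -0.0050 to 0.13, *Rb1* from -0.093 to 0.37, *Cdkn1a* from 0.060 to 0.35, *Cdkn1b* from -0.35 to -0.014, *Ccnd3* from 0.049 to 0.25, *Cdkn1c* from -1.31 to -0.46, *Ccnd1* from -0.88 to -0.32, *Ccnd2* from -0.55 to -0.08 and *Cdk6* from 0.22 to 0.41. Correction for length gave -0.89 for *Cdkn1c*, -0.46 for *Ccnd1* and 0.43 for *Cdk6*, and the minimum of 10 CPM removed *Cdkn1a*. The replicate block changed no adjusted call. The count of genes called was 1, and became 10 with no filter, 0 at a minimum of 10 CPM (302 at an unadjusted limma p under 0.05), 11 with length correction and the replicate block, and 0 without both replicate 1 libraries, with or without the block (792 and 667 unadjusted). It ranged from 0 (without control replicate 2 or 3, with 266 and 331 unadjusted) to 3 (without MaeaCsf1r-Cre replicate 3) with single libraries left out. The *Ccnd1* share among D-type cyclins differed by -0.45 percentage points per kilobase, -1.43 with the longest transcript and -1.11 with no length scaling. With single libraries left out, the share differences ranged from -8.37 to -2.16 points for *Ccnd2*, 2.53 to 8.97 for *Ccnd3*, 1.03 to 4.22 for *Cdk6*, 6.35 to 13.1 for *Cdkn1a*, 3.50 to 10.3 for *Cdkn1b* and -23.2 to -9.86 for *Cdkn1c*. The causes were not tested. With 3 libraries a group, standard errors of 0.12 to 0.46 limit what the comparison can show.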
